A study of Mus musculus with 8 samples.

Results

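Libraries from 100 wild-type mouse embryonic stem (ES) cells were compared with libraries from 1000 of the same cells, to see which transcripts the smaller input kept and which it lost. Of the 8 libraries in the count table, the 4 wild-type ones were used, 2 from 1000 cells and 2 from 100 cells. Of the 43309 genes listed, the 15618 with 10 or more counts in at least 1 of these 4 libraries were taken, and 17819 genes had 0 counts in all 4. All 4 libraries came from J1 (129SV) ES cells labelled Zbtb24 wild-type (2lox/+), grown in serum medium on gelatin without feeder cells. The other 4 libraries came from cells labelled Zbtb24 knockout (1lox/1lox), grown and lysed in the same manner. They were used here only for comparison with the wild-type libraries and in fits of all 8 libraries. Cells were lysed directly, with no RNA isolation, in the buffer of the SMARTer Ultra Low kit, and the cDNA was made into libraries with the Nextera kit. PCR ran for 10 cycles on the larger samples (roughly 10 ng of RNA) and for 18 cycles on the smaller ones (roughly 1 ng), so cell number and PCR cycles changed together and their parts in any difference cannot be told apart. The replicates are described as separate clones, but which clone gave which library is not stated in the labels, so p-values measure the spread between the labelled replicates only.

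The SMARTer method primes reverse transcription at the poly(A) tail and lets the enzyme switch templates when it reaches the 5′ end, after which the full-length cDNA is amplified by PCR. A transcript is therefore counted only if a molecule of it was captured, copied and then amplified, and rare, long or base-biased transcripts are generally regarded as the hardest to carry through these steps. ES cells express a pluripotency network led by Oct4 (Pou5f1), Sox2 and Nanog, and a small, fluctuating fraction of them enters a state that resembles the two-cell embryo, marked by the Zscan4 genes.

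The 1000-cell libraries held 16686525 and 11752860 counts and the 100-cell libraries 9666985 and 13602460, so that the shallower library of each size was of a different replicate number. The 100 most abundant genes took between 23.0% and 24.1% of the counts in each library. Zbtb24, the targeted gene, had 244 and 201 counts at 1000 cells and 197 and 269 at 100 cells in the libraries labelled wild type, below the 494 to 545 counts of the libraries labelled knockout. Gene counts pool all exons, so these counts do not check the deletion. The pluripotency genes were present at both inputs: Nanog was at 293 and 291 cpm (counts scaled to a library of 1000000, sizes adjusted by the trimmed mean of M values, TMM) at 1000 cells and at 286 and 287 at 100 cells. Pou5f1 was at 56.7 and 51.4 against 55.1 and 75.8 cpm, and Sox2 at 113 and 126 against 80.4 and 121 cpm. Of 22 naive pluripotency genes 0 passed the test, and their median log2 ratio was 0.07, against 0.00 over all genes tested. Among markers of other cells, 8 of 11 blood genes and 5 of 13 fibroblast genes had 3 or fewer counts in all 4 libraries. Only 1 of 14 neuron and glia genes, 1 of 14 primitive endoderm genes and 2 of 11 trophoblast genes did. Over the 4 libraries the sums of these last lists were 569 to 583, 413 to 529 and 66.3 to 107 cpm of the library total.

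Few single genes passed the test between the inputs, and with all 4 libraries most of those that did were lower at 100 cells. Of 15618 genes, 52 (0.333%) passed an adjusted p of 0.05 in edgeR's quasi-likelihood test with Benjamini-Hochberg adjustment: 44 were lower at 100 cells (0.282%) and 8 were higher (0.0512%). At an unadjusted p under 0.05, 1135 genes (7.27%) were lower and 824 (5.28%) higher. The lower genes had a median transcript length of 6624 bases and a median GC content of 43.3%, the higher genes 4004.5 bases and 55.9%, and all genes tested 3076 bases and 49.4%. Of the 44 lower genes, 24 had a longest transcript over 6000 bases (54.5%, against 12.4% of genes tested) and 39 had a GC content under 50% (88.6%, against 52.8%). Of the 8 higher genes 0 were over 6000 bases and 1, Tbcd, was under 50% GC. The lower genes comprised 35 protein-coding genes, 4 long non-coding RNAs (lncRNAs), 3 pseudogenes, 1 provisional transcript and 1 gene absent from the annotation used here. The number of calls depended on single libraries: it was 21 without 1000-cell replicate 1 and 4 without 1000-cell replicate 2, but 2338 without 100-cell replicate 1 and 2096 without 100-cell replicate 2. Without 100-cell replicate 2 the lower genes were no longer the majority, at 973 against 1123 higher, and without 1000-cell replicate 2 there were 2 of each. The median length of the lower genes depended on the libraries as well: it was 2259.5 bases without 1000-cell replicate 1, 3345.5 without 1000-cell replicate 2, 5125 without 100-cell replicate 1 and 3961 without 100-cell replicate 2. Their median GC content in these 4 analyses was 44.0%, 44.6%, 43.8% and 46.2%.

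**Figure D1:**
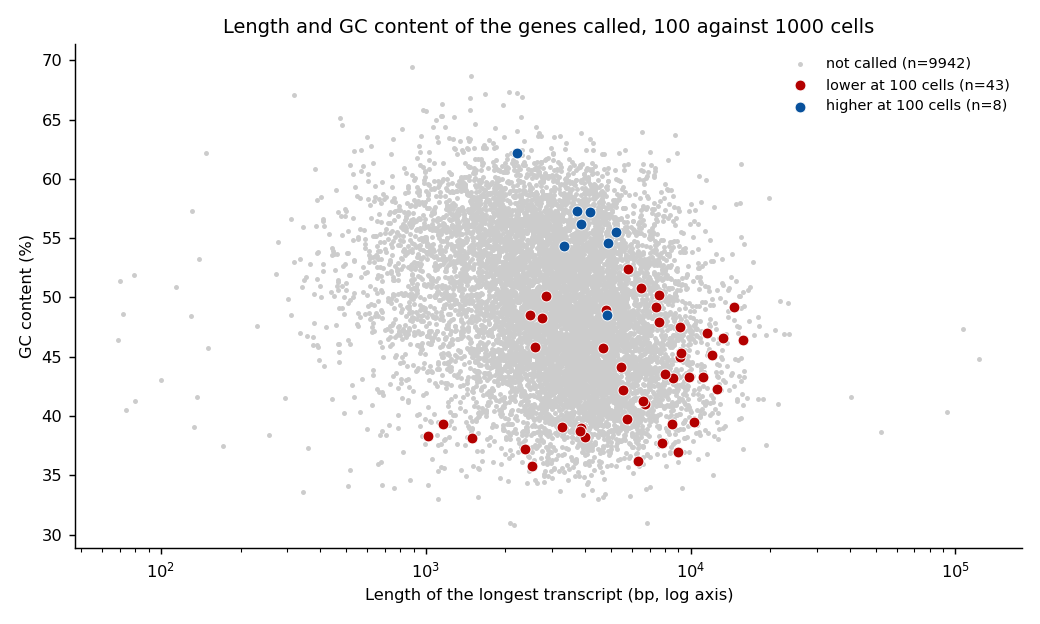
Longest-transcript length (log scale, bases) against transcript GC content (percent) for genes tested that averaged at least 5 cpm and had a known length. The 8 genes higher at 100 cells and 43 of the 44 lower ones are in color. The lower genes lie toward long transcripts and low GC (medians 6624 bases and 43.3%), and the higher genes toward high GC (median 55.9%).

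Coding sequence of genes at either end illustrates the difference in base composition, with the contrast fixed by the choice of genes and windows. The genes were taken from the called genes with the largest ratios, shown in the plot of called genes, leaving out those that are not protein-coding or share 50-base windows with more than 2 other genes. Of these, Sf3a2 and Cherp were the 2 most GC-rich that were higher at 100 cells, and Tmf1 and Atad2b the 2 most AT-rich that were lower. Each is 150 bases of the longest coding exon, placed where its GC content was closest to that of the whole transcript, 5′ to 3′ along the gene, from GENCODE M21 on GRCm38, with capitals marking runs of 4 or more G or C.
Sf3a2: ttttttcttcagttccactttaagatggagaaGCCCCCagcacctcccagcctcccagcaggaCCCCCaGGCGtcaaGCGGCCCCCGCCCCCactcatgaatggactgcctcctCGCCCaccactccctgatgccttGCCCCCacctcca
Cherp: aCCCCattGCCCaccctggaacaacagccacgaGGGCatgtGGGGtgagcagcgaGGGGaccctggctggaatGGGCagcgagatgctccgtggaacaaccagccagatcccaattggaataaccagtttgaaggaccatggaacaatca
Tmf1: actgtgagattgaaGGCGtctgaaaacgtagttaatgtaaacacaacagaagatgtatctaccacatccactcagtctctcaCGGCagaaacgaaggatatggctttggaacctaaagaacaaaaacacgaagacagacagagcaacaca
Atad2b: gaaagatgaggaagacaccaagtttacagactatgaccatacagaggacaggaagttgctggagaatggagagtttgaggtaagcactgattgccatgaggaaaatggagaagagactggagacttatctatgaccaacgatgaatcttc
The Sf3a2 window (chr10:80803972-80804121, plus strand, exon 9 of 9) is 62.7% GC and holds 6 such runs, the longest of 15 bases. The Cherp window (chr8:72464329-72464478, minus strand, exon 10 of 18) is 57.3% GC and also holds 6. The Tmf1 window (chr6:97176400-97176549, minus strand, exon 2 of 17) is 42.0% GC and holds 2, and the Atad2b window (chr12:5031572-5031721, plus strand, exon 28 of 31) is 43.3% GC and holds 0. Over 337076 windows of 150 bases along the longest transcripts of 13441 protein-coding genes tested, the median was 3 runs, and 19.6% of windows held 6 or more. The printed windows are examples and no test of the difference. Genes passed over include Eif4ebp2 (52.4% GC) and Atic (50.2%), both lower at 100 cells, and Tbcd (48.5%), which was higher.

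The 8 genes that were higher at 100 cells were all protein-coding, and Sf3a2 and Cherp had the largest ratios. Sf3a2 (chr10:80798198-80804924), a subunit of the SF3A complex that helps the splicing machinery bind the branch point, was at 4.34 and 5.99 cpm at 1000 cells and at 13.4 and 15.5 cpm at 100 cells. Both 100-cell values were above both 1000-cell values, a 2.84-fold higher mean (log2 ratio 1.50 ± 0.23 SE, adjusted p = 0.0263). Cherp, a nuclear protein of the same spliceosomal particle, was at 27.2 and 28.2 against 49.8 and 54.2 cpm (0.91 ± 0.14, adjusted p = 0.0253). Tbl3, which acts in ribosome assembly, was at 118 and 98.9 against 204 and 175 cpm (0.81 ± 0.13, adjusted p = 0.0337). Of the 10 genes of the SF3A and SF3B complexes, Sf3a2 alone passed the test. Their median log2 ratio was 0.13, and at an unadjusted p under 0.05 Sf3a1 (0.29, adjusted p = 0.284) and Sf3b4 (0.44, adjusted p = 0.117) were higher as well.

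The remaining genes that were higher serve varied functions. Ipo4, an importin that carries histones and ribosomal proteins into the nucleus, was at 67.0 and 65.2 against 114 and 115 cpm (0.79 ± 0.12, adjusted p = 0.0232). Nid2, a basement membrane protein, was at 66.1 and 68.7 against 129 and 101 cpm (0.77 ± 0.14, adjusted p = 0.0411). In both, the 100-cell libraries were the higher ones. Wdr6, a partner of tRNA methylation, was at 29.0 and 24.1 against 44.4 and 48.3 cpm (0.80, adjusted p = 0.0486). Tbcd, a tubulin-folding cofactor, was at 40.5 and 34.6 against 64.1 and 62.4 cpm (0.75, adjusted p = 0.0478), and Elac2, which trims tRNA 3′ ends, at 109 and 106 against 168 and 165 cpm (0.63, adjusted p = 0.0404). Exons of all 8 genes overlap those of another gene in the annotation, 7 of them on the opposite strand (for Sf3a2, Plekhj1), against 14 of the 44 lower genes (31.8%) and 34.0% of genes tested. Counting ignored strand and discarded reads that fell on more than 1 gene, so for such genes the counted part of the transcript may be only what does not overlap. The overlaps are those of GENCODE M21, whereas reads were counted on GENCODE M4. The part of overlap in these differences was not tested.

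**Figure D2:**
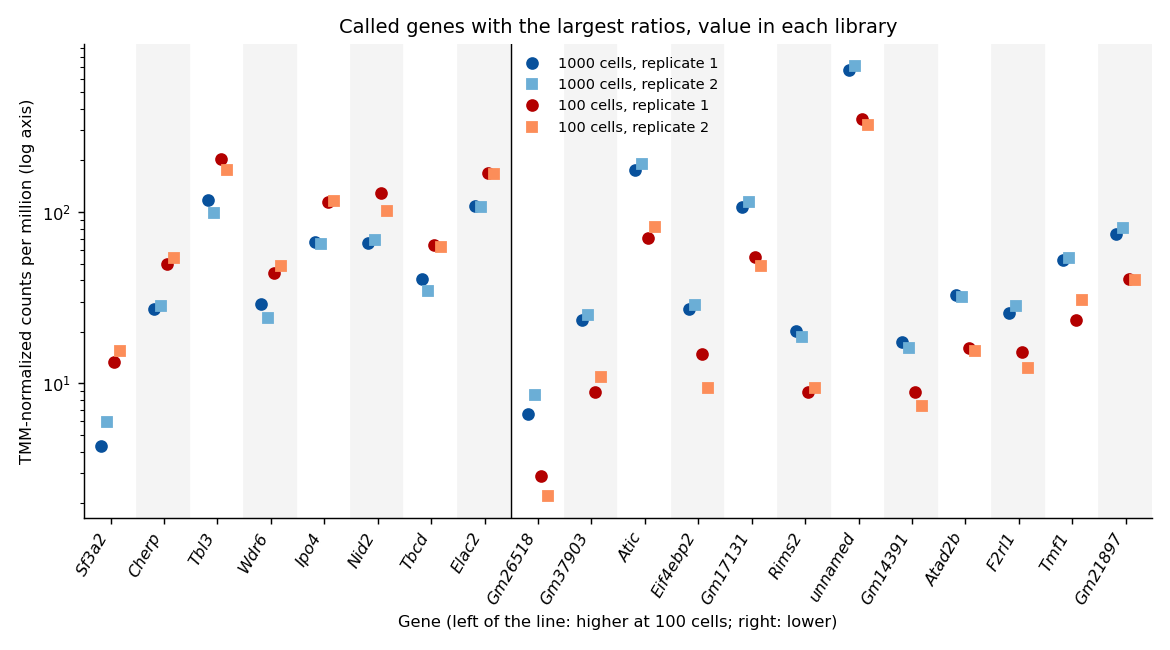
TMM-normalized cpm (log scale) of called genes in each of the 4 wild-type libraries, points colored by input. Genes were plotted only if the points of the 100-cell and 1000-cell libraries did not overlap. An example is Atic (70.7 and 81.6 cpm at 100 cells, 176 and 190 at 1000 cells).

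The smallest adjusted p of the comparison was that of Atic (chr1:71557150-71579631), the enzyme of the last steps of purine synthesis. It was at 176 and 190 cpm at 1000 cells and at 70.7 and 81.6 cpm at 100 cells, a 2.40-fold lower mean at 100 cells (log2 ratio -1.26 ± 0.12 SE, adjusted p = 0.00274). Atic is neither long (2845 bases) nor AT-rich (50.2% GC). Eif4ebp2, a repressor of cap-dependent translation, was at 27.0 and 28.8 against 14.9 and 9.40 cpm (-1.22 ± 0.21, adjusted p = 0.0356). Pa2g4, a growth-regulating RNA-binding protein, was at 552 and 511 against 294 and 279 cpm (-0.89, adjusted p = 0.0121). Supt16, a subunit of the FACT histone chaperone, was at 478 and 470 against 258 and 279 cpm (-0.82, adjusted p = 0.0184). In all 4 genes the 100-cell libraries were below both 1000-cell libraries, and close to each other except in Eif4ebp2.

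Further genes among the 44 are described here by their known roles, chosen after their values were seen. Atrx, a chromatin remodeler of repeats, was at 536 and 555 cpm at 1000 cells and 354 and 341 cpm at 100 cells (log2 ratio -0.65, adjusted p = 0.0356). Chd9, a remodeler of the CHD family, was at 178 and 176 against 106 and 92.4 cpm (-0.84, adjusted p = 0.0199), and Rif1, which times DNA replication, at 872 and 880 against 601 and 561 cpm (-0.59, adjusted p = 0.0486). Kat6a, a histone acetyltransferase (-0.83), Baz1b, a bromodomain protein (-0.81), Jmjd1c, of the JmjC demethylase family (-0.67), Tet2, which oxidizes methylcytosine (-0.65), and Atad2b (-1.03, adjusted p = 0.0252) also passed. Their transcripts were long, for example 10275 bases for Atrx and 9179 bases for Tet2. Zfp57, the zinc finger protein that guards imprints, was at 89.5 and 93.2 against 60.2 and 45.8 cpm (-0.79). In these genes, as in all 52 called, the inputs did not overlap. The calls rest on the same values, so this is no separate support, and the share over all genes tested is not given.

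Other genes of the 44 were chosen in the same way. The centrosomal genes Cep350 (-0.93), Cntrl (-0.74) and Pcm1 (-0.68), the kinetochore genes Cenpf (-0.60) and Knl1 (-0.67), and the Golgi coiled-coil genes Tmf1 (-0.95), Golga4 (-0.83) and Trip11 (-0.81) all fell. Tmf1 was at 52.2 and 53.6 against 23.6 and 30.8 cpm (adjusted p = 0.0353). The longest message of the 44 was that of Birc6, a giant ubiquitin ligase of 15768 bases, which fell by 0.63 on the log2 scale. Rims2, a scaffold of the synaptic active zone, was at 20.3 and 18.6 against 8.91 and 9.40 cpm (-1.09, adjusted p = 0.0356), and F2rl1, a protease-activated receptor, at 25.6 and 28.1 against 15.2 and 12.4 cpm (-0.97, adjusted p = 0.0411).

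Non-coding and repeat-like genes were the remainder. Meg3 (chr12:109541001-109571726), the maternally expressed lncRNA of the Dlk1-Dio3 imprinted locus, was at 64.3 and 74.2 cpm at 1000 cells and at 35.3 and 40.3 cpm at 100 cells (log2 ratio -0.87 ± 0.14 SE, adjusted p = 0.0340). The lncRNA Gm26518 had the largest fall, from 6.65 and 8.61 to 2.87 and 2.20 cpm (-1.59, adjusted p = 0.0486), and its call was lost in 5 of 14 alternative analyses. Gm37903 went from 23.6 and 25.0 to 8.91 and 10.9 cpm (-1.28, adjusted p = 0.0199), and the pseudogene Gm17131 from 107 and 115 to 54.3 and 48.2 cpm (-1.11, adjusted p = 0.00544). ENSMUSG00000101749.2, the gene without an annotation here and marked unnamed in the plot of called genes, went from 676 and 715 to 348 and 320 cpm (-1.06, adjusted p = 0.00424). The inputs did not overlap in any of the 52 called genes, so this was not particular to these. Such genes share sequence with others. Of their 50-base windows, 96.0% in Gm17131, 87.5% in Gm21897 and 55.1% in Gm37903 occur in transcripts of other genes. Fragments that mapped to several places were discarded, so the counts may cover only part of these transcripts.

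Across all genes, base composition separated the 2 inputs. Among the 13507 genes averaging 1 cpm or more over the 4 libraries, the median log2 ratio of 100 over 1000 cells rose step by step with the GC content of the longest transcript, from -0.14 in 953 genes up to 40% GC through -0.08 (40 to 45%), -0.02 (45 to 50%), 0.06 (50 to 55%) and 0.13 (55 to 60%) to 0.19 in 481 genes over 60% GC. In the lowest class 193 genes were lower and 16 higher at an unadjusted p under 0.05, and in the highest 0 were lower and 65 higher. To place each library, the median over the top 20% of genes by GC (from 55.2%) was compared with the median over the bottom 20% (up to 43.6%), each relative to the gene's mean over the 4 libraries. This tilt was -0.08 and -0.16 (log2) at 1000 cells and 0.09 and 0.17 at 100 cells. The 2 inputs did not overlap, with means of -0.12 ± 0.05 and 0.13 ± 0.06 (SD, n = 2) and a difference of 0.25. With 2 libraries against 2 the exact two-sided permutation test cannot fall below p = 0.333, which is the value it gave.

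**Figure D3:**
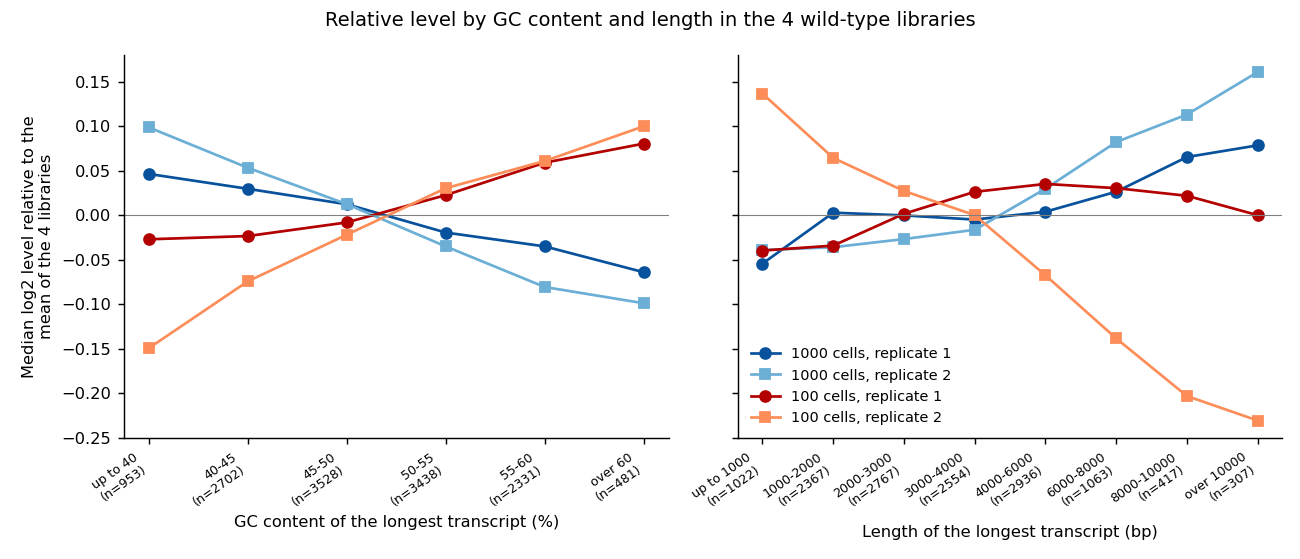
Median log2 level of each wild-type library relative to the mean of the 4 (vertical axis), by class of transcript GC content (percent) and of transcript length (bases). The 100-cell libraries lie below the 1000-cell libraries at low GC and above them at high GC, whereas in length only 100-cell replicate 2 departs strongly (-0.23 over 10000 bases).

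The shift of long transcripts as a class came mostly from 1 of the 100-cell libraries. In 307 genes over 10000 bases the median relative level was 0.08 and 0.16 at 1000 cells, but 0.00 in 100-cell replicate 1 and -0.23 in replicate 2, and 8 of these genes (2.61%) passed the test as lower. In 1022 genes up to 1000 bases the medians were -0.05 and -0.04 against -0.04 and 0.14. The length tilt, taken between transcripts of at least 5088 and at most 1749 bases, was 0.05 and 0.12 at 1000 cells and 0.07 and -0.23 at 100 cells, so the inputs overlapped (difference -0.17, exact permutation p = 0.667). It was -0.02 without 100-cell replicate 2 and -0.32 without 100-cell replicate 1. With length and GC combined, 678 genes with GC up to 45% and over 6000 bases had a median log2 ratio of -0.24, 593 genes with GC up to 45% and up to 2000 bases one of 0.01, and 1582 genes with GC over 55% and 2000 to 6000 bases one of 0.19. Genes over 6000 bases were at 0.04 with GC over 55%. With GC of 45 to 55% the median was -0.09 over 6000 bases and 0.03 at 2000 to 6000 bases.

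Expression level showed the smallest relation to the ratio. Level was taken per length, as cpm per kilobase of the longest transcript (FPKM). The median log2 ratio was -0.05 in genes up to 1 FPKM and 0.08 in genes over 100 FPKM, where 100-cell replicate 1 was at -0.05 and replicate 2 at 0.12 relative to the mean of the 4 libraries. The level tilt was -0.02 and -0.08 at 1000 cells against -0.05 and 0.14 at 100 cells (difference 0.09, exact permutation p = 0.667) and was -0.000205 without 100-cell replicate 2. Across 13433 genes, which are not independent replicates, Spearman's coefficient of the log2 ratio was 0.323 with GC, -0.172 with length and 0.0957 with level.

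Transcript class also moved with the ratio. The median log2 ratio was 0.02 in 12157 protein-coding genes and 0.01 in 488 pseudogenes, but -0.15 in 583 lncRNAs and -0.45 in 145 provisional transcripts (class TEC of the annotation, single-exon models that await experimental proof). In the lncRNAs the library medians lay at 0.03 and 0.11 for the 1000-cell libraries against -0.01 and -0.14 for the 100-cell ones, and 74 were lower and 10 higher at an unadjusted p under 0.05. In the TEC class they were 0.13 and 0.27 against -0.09 and -0.32, with 47 lower and 2 higher. In neither class did the inputs overlap. Only 4 lncRNAs and 1 TEC transcript passed the adjusted threshold. The median GC content was 46.7% in the lncRNAs and 40.5% in the TEC class, against 49.7% in protein-coding genes, and the part of GC content in these medians was not tested.

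Among 21 named lncRNAs tested, 16 had a log2 ratio below 0 and the median was -0.30, against 0.00 over all genes, with 1 (Meg3) past the threshold and 7 lower at an unadjusted p under 0.05. Malat1, an abundant nuclear RNA, had 20653 and 16126 counts at 1000 cells and 8818 and 11593 at 100 cells (log2 ratio -0.54 ± 0.11 SE, adjusted p = 0.0657). Kcnq1ot1, the imprinted antisense RNA that silences its domain, was at 313 and 366 against 299 and 205 cpm (-0.43, adjusted p = 0.281), while Lncenc1, a naive-state lncRNA, was at 250 and 259 against 340 and 197 cpm (0.07). In both of these the 100-cell replicates lay far apart. Of the 21, 8 were lower without 100-cell replicate 1, 3 were lower and 1 higher without 100-cell replicate 2, and 0 were called without either 1000-cell replicate. The Dlk1-Dio3 locus held 7 tested transcripts with a median of -0.55, among them Gm37899 (-1.28, adjusted p = 0.0578) and B830012L14Rik (-0.89, adjusted p = 0.0578) beside Meg3. The 13 snoRNA host transcripts had a median of 0.02 with 0 called, such as Gas5 with 7215 and 5294 against 4981 and 6475 counts (0.19).

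Detection was kept for coding genes and was lower for lncRNAs and TEC transcripts. When all libraries were thinned to the smallest total (9666985 counts), genes with more than 10 counts numbered 98.7% ± 1.00 (SD from n = 2 per input) at 100 cells of the number at 1000 cells. For protein-coding genes the share was 99.6% ± 0.591. For lncRNAs it was 90.2% ± 6.27, from 571 and 598 genes at 1000 cells and 550 and 504 at 100 cells, and for TEC transcripts 70.7% ± 9.62, from 150 and 166 against 121 and 103. The pseudogene share was 96.6% ± 3.79. By GC the share rose from 95.2% ± 3.11 up to 40% GC to 102.5% ± 0.985 over 60% GC, whereas by length it stayed between 97.4% (up to 1000 bases) and 100.3% (over 10000 bases). Counting any gene with at least 1 count, the share was 94.5% ± 3.21 overall and 75.7% ± 1.13 for small RNA genes.

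Genes that dropped out altogether mostly had few counts. The shares given here are at full depth, where 100-cell replicate 1 was the shallowest library. Of 1800 genes with 10 to 19 counts in 1000-cell replicate 1, 5.44% (95% Wilson interval 4.49 to 6.59) had 0 counts in 100-cell replicate 1 and 1.72% (1.22 to 2.43) in 100-cell replicate 2, against 0.278% (0.119 to 0.649) in the other 1000-cell library. Such intervals cover counting error only, since PCR reads without molecular identifiers are not independent molecules. From 1000-cell replicate 2, with 1725 such genes, the shares were 3.94% and 1.16%, against 0.522%. Between the 100-cell libraries themselves they were 1.16% and 3.29%. Poisson counting would leave at most 0.0909% of such genes at 0 if the count in the first library were the true mean. That figure leaves out the counting error of the first library, so it is too low. The pairs of 1000-cell libraries exceeded it as well. At 5 to 9 counts the shares reached 7.07 to 23.5% from 1000 to 100 cells, against 2.63 to 7.20% between the 1000-cell libraries, and at 20 to 49 counts they were at most 0.687%.

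In all, 756 genes had at least 1 count in both 1000-cell libraries and 0 in both 100-cell ones, of which 257 were protein-coding, 163 pseudogenes, 156 lncRNAs and 109 small RNA genes, and 154 genes showed the reverse. These numbers were not thinned to a common depth, so part of the contrast can come from the unequal library totals. Among genes with 0 counts in both 100-cell libraries, those with the highest mean at 1000 cells were Zscan4b with 1 and 32 counts at 1000 cells, Gm10696 with 0 and 24, ENSMUSG00000097581.1 with 0 and 20, Edaradd with 11 and 12, and Gm6502 with 0 and 19. Edaradd, the adaptor of the ectodysplasin receptor, was the one among them with similar counts in both 1000-cell libraries. Among genes with 0 counts in both 1000-cell libraries, those with the highest mean at 100 cells were Krt71, an inner root sheath keratin, with 10 and 1 counts at 100 cells, Gm12466 with 0 and 13, 1700125H20Rik with 6 and 6, Mep1a, a metalloprotease, with 10 and 0, and Klrg1, a lymphocyte receptor, with 7 and 3. Klrg1 and 1700125H20Rik were below the minimum of 10 counts, and of the other 8 genes 0 passed the adjusted threshold.

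The replicates of 100 cells lay about as far from each other as from the 1000-cell libraries. Over 8363 genes with at least 10 cpm, the median absolute log2 ratio was 0.09 between the 1000-cell libraries, 0.20 between the 100-cell libraries and 0.17 to 0.19 across inputs. The coefficient of variation between replicates, taken from the excess over counting error, was 6.02% in 8381 genes at 1000 cells and 15.0% in 8339 genes at 100 cells. It fell with level in the 1000-cell libraries, from 19.4% at 1 to 3 cpm to 3.59% at 300 to 1000 cpm. In the 100-cell libraries it fell from 32.2% to 11.4% over the same range and was 14.5% at 1000 cpm or more, so even the most abundant transcripts kept a wider spread. The libraries labelled knockout had the opposite order, with 5.83% at 1000 cells and 3.68% at 100 cells for genes of at least 10 cpm, and lower values at 100 cells in every level class from 1 cpm. The share of genes more than 2-fold apart at 1 to 3 cpm was 2.98% at 1000 cells and 11.7% at 100 cells. The coefficient of variation was larger for lncRNAs (10.7% at 1000 cells, 20.2% at 100 cells) than for protein-coding genes (5.89% and 14.8%), and reached 20.3% in transcripts over 10000 bases at 100 cells.

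**Figure D4:**
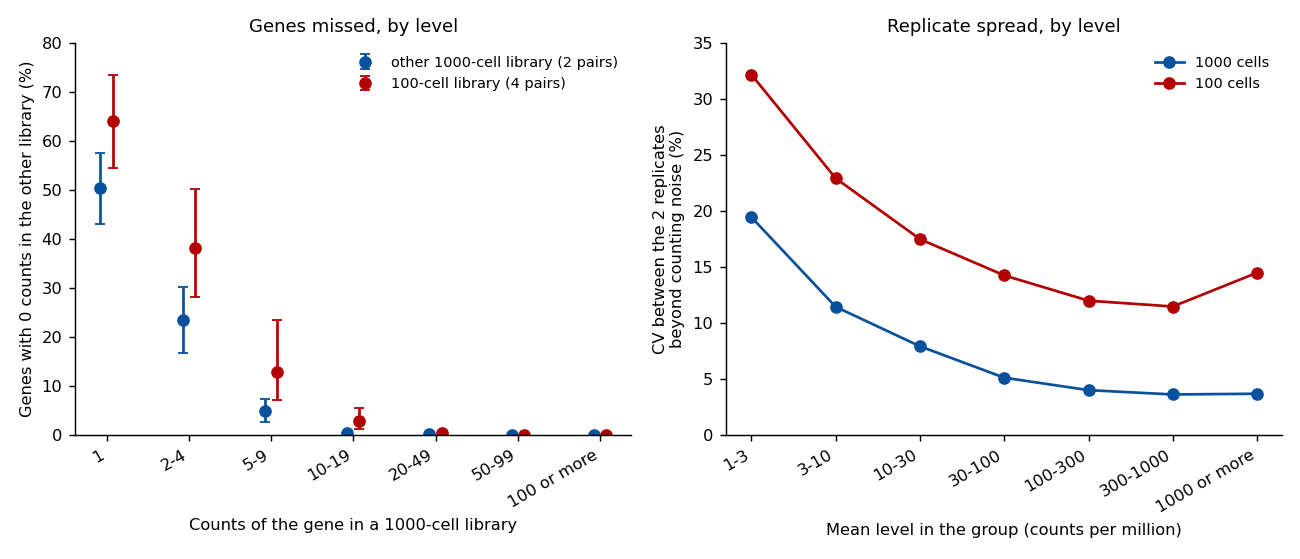
Share of genes at 0 counts in a second library by their count in a first (percent), and coefficient of variation between replicates by level (percent, cpm classes), for the 1000-cell and 100-cell wild-type libraries. Points at left are medians over library pairs at full depth, and bars run from the lowest to the highest pair. The left panel starts from a 1000-cell library, and the medians lie higher when the second library is a 100-cell one up to 49 counts. At right the 100-cell values lie higher in every level class, with 15.0% against 6.02% for genes of at least 10 cpm.

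Between the 100-cell replicates the ratio of replicate 1 to replicate 2 moved with transcript length (Spearman's coefficient across 13433 genes 0.257), and less with GC (-0.0871). The genes with the largest excess in replicate 1 were Zfp275 (18.1 against 6.22 cpm), Prickle1, a planar polarity protein (15.3 against 5.61), Tek, the angiopoietin receptor (14.6 against 5.61), Tyr, the tyrosinase of melanin synthesis (14.9 against 6.29) and Cdh3, P-cadherin (22.6 against 9.48). Those with the largest excess in replicate 2 were Krt19, a simple-epithelium keratin (20.6 against 6.25 cpm), Gm12918 (16.0 against 5.43), Pde6d, a chaperone of prenylated proteins (28.2 against 12.4), Hal, which degrades histidine (24.0 against 11.0) and Commd3 (18.9 against 8.91). Other simple-epithelium keratins, which also mark trophoblast, had their highest raw counts in the same library. Krt8 had 75 and 52 counts at 1000 cells and 66 and 176 at 100 cells, and Krt18 had 165 and 108 against 146 and 296. The log2 ratio of Krt18 was 0.66 to 1.24 over 15 alternative analyses, also those without 1 of the 100-cell replicates. In some of these alternatives Krt18 was called higher, though not in the main analysis. Of the 9 trophoblast markers tested 0 passed the threshold, and their sum was 68.1 and 66.3 against 75.8 and 107 cpm of the library total. The first 10 genes were chosen for the ratio between the 2 libraries, which is therefore given without a test.

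The genes of the two-cell-like state set 1 library apart from the other 3. The Zscan4 genes, which mark that state, summed to 8 and 909 counts at 1000 cells and to 8 and 21 counts at 100 cells. Zscan4f had 4 and 365 counts against 3 and 5, Zscan4d 3 and 300 against 5 and 8, and Zscan4c 0 and 198 against 0 and 8. The high values were those of 1000-cell replicate 2 alone, in which Usp17le, a deubiquitinase of the same program, had 65 counts against 5, 1 and 0. Arg2, an arginase on the same list, was instead at 26 and 23 against 3 and 34 counts. Of the 11 genes of the list that were tested 0 were called by edgeR's quasi-likelihood test, and 7 were lower at an unadjusted p under 0.05. Without 1000-cell replicate 2, 1 of them passed the count minimum, with a log2 ratio of -0.03. In the libraries labelled knockout the whole list summed to 25, 9, 11 and 11 counts. The Zscan4 genes are near-identical copies, with 95.3% of the 50-base windows of Zscan4f and 85.5% of those of Zscan4c found in other genes. Fragments that mapped to several places were discarded, so counts of single members may cover only part of each gene and are uncertain as levels. In bulk samples, fewer cells of a type and less RNA per cell cannot be told apart.

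**Figure D5:**
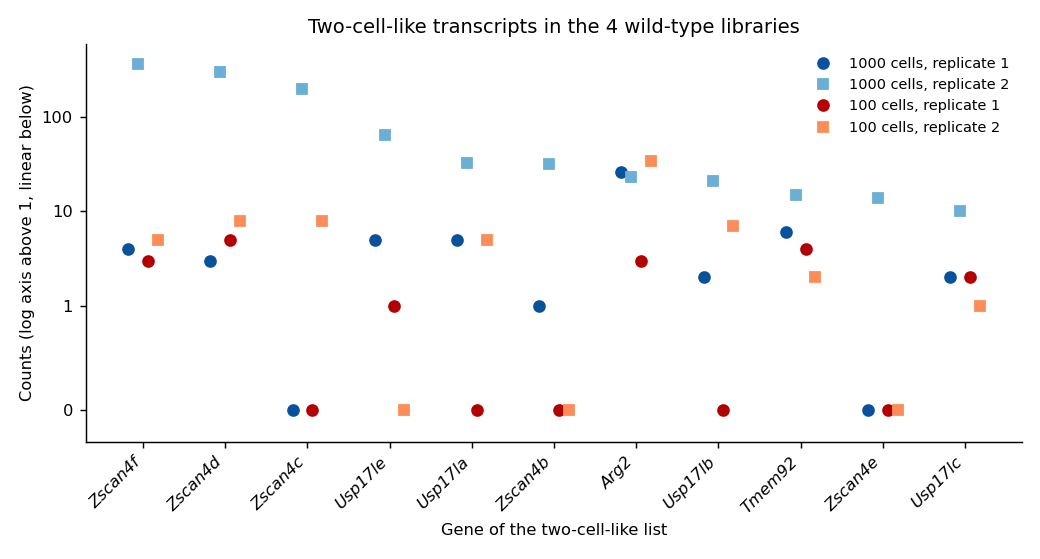
Counts of two-cell-like genes in each wild-type library, 1 point per library and gene. In the 11 genes plotted except Arg2, the libraries of 100 cells and 1000-cell replicate 1 lie below 1000-cell replicate 2, which reaches 365 counts for Zscan4f. The axis is logarithmic above 1 count and linear below it.

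Functional groups had few or 0 members called, against a background of 0.333% of genes called. Of 15 G2/M genes, Cenpf was called, at 365 and 380 cpm at 1000 cells and 249 and 242 at 100 cells (log2 ratio -0.60, adjusted p = 0.0474). The group's median was -0.13, and 5 of the 15 were lower at an unadjusted p under 0.05, including Cenpe, a kinetochore motor (-0.56, adjusted p = 0.0685), and Top2a, which untangles sister DNA (-0.45, adjusted p = 0.105), against 7.27% of all genes. Ccnb1, the cyclin of mitotic entry, was at 927 and 828 against 883 and 893 cpm (0.02). The 15 G1/S genes had a median of 0.19 with 0 called and 4 higher at an unadjusted p, led by Mcm5 of the replicative helicase at 432 and 421 against 559 and 612 cpm (0.46, adjusted p = 0.0972).

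Metabolic and ribosomal groups had medians above 0 with all 4 libraries. Of 76 nuclear genes of oxidative phosphorylation 72 had a log2 ratio above 0, with a median of 0.16 and 19 higher at an unadjusted p, and of 79 cytosolic ribosomal protein genes 71 were above 0, with a median of 0.17 and 6 higher, beside the 5.28% of all genes. The ribosomal protein median was 0.39 without 100-cell replicate 1, with 70 genes called higher, and -0.07 without 100-cell replicate 2, with 17 called lower and 4 higher. That of oxidative phosphorylation was 0.27 with 47 called higher and 0.08 with 12 called higher. Their sums did not move alike in the libraries: the ribosomal protein genes took 76331 and 77305 cpm of the library total at 1000 cells but 72880 and 92649 at 100 cells, where the replicates lay on either side. In these groups 0 genes passed the adjusted threshold, as in the 15 glycolysis genes (median 0.28, 6 higher at an unadjusted p) and the 24 lysosome genes (median 0.07, 9 higher). Without 100-cell replicate 1 or 2, 11 or 4 glycolysis genes were called higher, and 4 or 10 lysosome genes, with 1 lysosome gene lower in each case. Ldha, which makes lactate, was at 37904 and 25109 counts against 25925 and 36341 (0.31, adjusted p = 0.274), and Psap, the precursor of lysosomal saposins, at 186 and 154 against 203 and 308 counts (0.88, adjusted p = 0.0577).

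The remaining groups also had 0 genes called. The medians were 0.17 in 12 formative and primed genes, 0.05 in 16 immediate early genes, 0.04 in 18 genes of the integrated stress response and heat shock, -0.03 in 22 cholesterol synthesis genes and 0.22 in 35 replication-dependent histone genes. Among markers of other lineages they were 0.23 in 10 primitive endoderm genes, 0.45 in 9 trophoblast genes, -0.14 in 5 fibroblast genes, 0.19 in 2 blood genes and -0.06 in 11 neuron and glia genes. Leaving out 1 library turned some of these signs: the histone median was -0.09 without 1000-cell replicate 1 and -0.03 without 100-cell replicate 2, where the immediate early and stress medians were -0.02 and -0.05. The cholesterol median was 0.02 without 1000-cell replicate 1, and the fibroblast median 0.15 without 1000-cell replicate 2. Without a 100-cell replicate, up to 5 genes of a group were called in 1 direction. At an unadjusted p under 0.05, 3 of the 9 trophoblast genes were higher and 0 lower, and all 9 had a log2 ratio above 0. Of the 35 histone genes 4 were higher and 1 lower. Each of the other groups had at most 2 genes past it in 1 direction. Over all genes 7.27% were lower and 5.28% higher. Common reference genes stayed close to 0, with log2 ratios of 0.09 for Gapdh, -0.11 for Actb and, for the elongation factor Eef1a1, 0.00.

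The same input ratio in the libraries labelled knockout gives a second reading of the GC tilt, in samples that did not enter the wild-type tilts. There the tilt was -0.21 and -0.37 at 1000 cells and 0.25 and 0.34 at 100 cells, a difference of 0.59 against 0.25 in wild type, and the median log2 ratio ran from -0.29 up to 40% GC to 0.57 over 60% GC. The length tilt difference was -0.04, against -0.17 in wild type, and the level tilt difference was -0.20, against 0.09. The lncRNA median was -0.40 and the TEC median -0.58, both on the same side as in wild type. In the knockout 8663 of 15966 genes (54.3%) passed the threshold between the inputs. The knockout 100-cell libraries also held more neuron and glia markers, which summed to 824 and 829 cpm against 517 and 504 at 1000 cells, whereas in wild type they were at 569 and 576 against 582 and 583, and the part of these markers in the knockout ratios was not tested. Of the 52 genes called in wild type 39 were called there too, 33 with the same sign and 6 with the opposite one. The wild-type and knockout ratios differed in 2745 of 16816 genes (16.3%, interaction in edgeR's quasi-likelihood test with Benjamini-Hochberg adjustment), and in 26 of the 52. The count of 2745 depended on each of the 8 libraries: leaving out any single one moved it by more than 1.5 times, between 709 without knockout 100-cell replicate 2 and 5631 without wild-type 100-cell replicate 2.

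For single genes the 2 genotypes could differ widely. Sf3a2 had log2 ratios above 0 in both, of 1.50 in wild type and 2.02 in knockout, as had Cherp (0.91 and 1.91) and Elac2 (0.63 and 0.79). Among the lower genes, Atrx (-0.65 and -0.45) and Chd9 (-0.84 and -0.48) had ratios below 0 in both. Atic, however, had 1746 and 2016 counts at 1000 cells and 2052 and 1995 at 100 cells in the knockout libraries, a log2 ratio of 0.15 where wild type had -1.26, and Meg3 had a ratio of 1.78 where wild type had -0.87.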

How the data were processed

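RNA-Seq was performed on 8 libraries of mouse ES cells in 4 groups of 2. Per the study's methods and the submitters' processing notes, the authors demultiplexed reads with CASAVA 1.8.2, removed ribosomal RNA with Bowtie2 2.1.0, mapped to mm10 with TopHat2 2.0.10 and counted fragments per GENCODE M4 gene with HTSeq 0.6.1 (union, without strand), discarding fragments that mapped to several places or genes. The deposited values are raw counts, 1 column per library, each matched to its sample by title, with 0 columns left unmatched. The 4 wild-type libraries held 9666985 to 16686525 counts, and no mitochondrial gene was listed (0).

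Genes with 10 or more counts in at least 1 wild-type library were tested with edgeR 4.0.16 (TMM, quasi-likelihood F test, Benjamini-Hochberg adjustment, R 4.3.3), on the 4 libraries without a block. The interaction with genotype was fitted on all 8. limma 3.58.1 and DESeq2 1.42.0 served as alternatives. Classes, length and GC content of the longest transcript came from GENCODE M21 (GRCm38), which matched 42425 of 43309 gene identifiers (98.0%), including 99.3% of those tested. Bins and tilts were restricted to genes averaging 1 cpm or more, on the log2(cpm + 0.5) scale, and detection used the expected number of genes after thinning. Summaries were made in Python 3.11.15 (numpy 2.4.6, pandas 2.3.3, scipy 1.17.1). The scripts were tested on simulated data.

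Genes named were those called with the largest ratios (up to 12 per direction, mean of at least 5 cpm, no overlap between the inputs). Added to them were reference genes and members of 22 gene lists that were called or most abundant. Also named were the 5 genes per direction with the largest ratio between 100-cell replicates, with 0 counts at 1 input, or with the largest interaction. Other genes named were chosen after their values were seen. For 1 gene that this rule names, the values are not reported here. The members and lists were chosen with earlier results of these data known. Same-numbered replicates did not deviate together (Pearson's r across genes -0.0588), so the numbers were not taken as pairs. The coefficient was -0.0991 in genes averaging at least 5 cpm and -0.134 in those of at least 10 cpm.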

Additional observations from a re-analysis of the deposited data

Results flagged for a closer look

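The ratio of 100 over 1000 cells differed between the wild-type and the knockout libraries in 2745 of 16816 genes by the interaction term of edgeR's quasi-likelihood test with Benjamini-Hochberg adjustment. It was above the knockout ratio in 1185 of them and below it in 1560. Among the genes called in wild type, the wild-type log2 ratio minus the knockout one was -0.98 for Cherp and 0.61 for Tbl3, both higher at 100 cells in wild type. For genes lower at 100 cells in wild type it was -1.88 for Eif4ebp2, -1.39 for Atic, -1.35 for Gm37903, -1.32 for Rims2, -1.24 for Atad2b, -0.94 for Gm14391, -0.91 for Gm17131 and for ENSMUSG00000101749.2, -0.82 for Gm21897 and -0.73 for Tmf1.

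Larger differences lay in genes that were not called in wild type. Mbp, a protein of myelin, and Snap25, a synaptic vesicle fusion protein, differed by -5.59 and -4.56. Mbp had 20 and 20 counts at 1000 cells and 15 and 16 at 100 cells in wild type, against 34 and 26 and then 1416 and 1360 in knockout, so the difference lay in the knockout 100-cell libraries. Gm10801 and Gm26870, at repeat-rich loci, differed by -3.89 and -3.02. In the other direction, Rhox5, an X-linked homeobox gene, differed by 2.00, Nxf3, of the RNA export family, by 1.92, Cnpy4 by 1.72, Dgka, a diacylglycerol kinase, by 1.64 and Ap1m2, a clathrin adaptor subunit, by 1.58. Rhox5 had 3061 and 2286 counts at 1000 cells and 2083 and 2371 at 100 cells in wild type, against 393 and 364 and then 94 and 102 in knockout. Explanations for these differences were not tested.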

How the results depend on the processing

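The number of genes called between the inputs in wild type (52) depended on most choices. It was 14 with library size as the sole scaling, 213 with DESeq2, 116 with limma-voom, 458 with edgeR's exact test, 474 when genes needed 1 count in any library, 120 when they needed 10 in every library, 102 after thinning to the smallest total, 10 with a log2 ratio above 1 in size and 709 when the spread was shared by all 8 libraries. It stayed within 1.5 times with DESeq2 size factors (38) and with genes longer than 200 bases (51). Leaving out 1 library gave 4 to 2338 calls, the lone library being assumed to vary like the other group. Why the numbers moved was not tested. The replicate block gave 308 calls (64 higher, 244 lower), although the pairing has no support in the labels, and the crossed replicate block, chosen after seeing the data, gave 524. Under the block the interaction count was 2497 against 2745, and leaving out 1 library moved it between 709 and 5631. Over all settings, the results for named genes stayed on the same side of the threshold in 1555 cases, lost a call in 56 and gained one in 147, and genes that were not called could change sign. Of the 20 called genes with the largest ratios, 17 lost their call without 1000-cell replicate 2, 14 without 1000-cell replicate 1 and 13 with library size as the sole scaling. Atic and Gm17131 kept theirs in all 15 alternatives.

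Coding genes detected at 100 cells were 97.3% of those at 1000 cells when 1 count sufficed and 97.1% at full depth, and lncRNAs 79.6% at full depth. The GC tilt difference was 0.17 with a pseudocount of 5 cpm and 0.20 to 0.29 when 1 library was left out. The level tilt difference lay between -0.000205 (without 100-cell replicate 2) and 0.19 (without 100-cell replicate 1). The coefficient of variation at 100 and 1000 cells was 11.98% and 3.88% from 100 cpm, and 14.1% and 4.93% as edgeR's common dispersion. With 2 libraries per input and no molecular identifiers, the absence of a gene with few counts could not be told from its loss in capture or counting.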
